A study of Mus musculus with 7 samples.

Results

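The genes described here make cholesterol and fatty acids, and many are known targets or regulators of the sterol regulatory element binding proteins (SREBPs). They were chosen as rows of the deposited count table whose Ensembl identifier maps to 1 of 39 named mouse symbols. All 39 were found among 42687 gene identifiers, 21 in a sterol arm and 18 in a fatty acid arm. RNA came from cells with both CD24 and CD29 on their surface, which the labels call skeletal stem cells of bone, sorted by flow cytometry from digested femurs of C57BL/6 mice. The mice were 3 months old when they began 4 weeks on a low fat diet (LFD, 10% fat, 4 libraries numbered 1 to 4) or on a high fat diet (HFD, 60% fat, 3 libraries numbered 2 to 4). No genetic change is named for either group, and the labels do not say whether a library is 1 animal or a pool. The comparison between the diets asks which transcripts of the sorted cells differed after the high fat food.

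The diet groups also differ in sex-linked transcripts, and this cannot be told apart from diet. Counts of Xist ran from 257 to 526 in LFD and were 0 in all HFD libraries, and 4 Y-linked genes together had 1 to 5 and 2494 to 3405 counts. Total counts per library ran from 17391613 to 24681838. Cartilage and bone genes were abundant in all libraries, with Col2a1 (cartilage collagen) at 10209 CPM in LFD 1 at the lowest and Col1a1 (bone collagen) at 4130 CPM in LFD 1 at the lowest. Of the sorting genes, Itgb1, which encodes CD29, stood between 368 and 497 CPM, and Cd24a between 774 CPM in HFD 2 and 4852 CPM in LFD 3. Ptprc, which encodes CD45 and was listed with them, measured 0.117, 6.14, 9.34 and 24.8 CPM in LFD 1 to 4. Its values of 51.9, 49.6 and 55.9 CPM in HFD 2 to 4 were above every LFD library. Which cells gave the Ptprc and Cd24a transcripts was not tested. CPM here means counts relative to 1000000 of the library total after TMM scaling.

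Cholesterol and fatty acids are both built from acetyl-CoA. In the sterol arm, acetyl-CoA passes through mevalonate and isoprenoid units to squalene, which is closed into lanosterol and trimmed to cholesterol. When sterols in the endoplasmic reticulum are scarce, SREBP precursors are carried to the Golgi and cut. The cut form enters the nucleus and switches on many of these genes. INSIG proteins hold the precursors back when sterols are plentiful. The SREBP encoded by Srebf2 is best known for the sterol enzymes, and the main liver form encoded by Srebf1 for the fatty acid enzymes.

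SREBPs act at promoters together with NF-Y, a factor that binds CCAAT boxes, and 4 promoters are shown because they belong to enzymes and a regulator described below. Promoters of 32 members were in the RefSeq table (build GRCm38.p6, the assembly of mm10), and the 250 bases before each start site were searched on both strands. The letters CCAAT were present for 16 of 17 sterol arm genes (94.1%) and for 10 of 15 fatty acid arm genes (66.7%), against 37.5% of all 27025 genes in the table. The letters TCACNCCAC, the core of a sterol regulatory element, were present for 2 of 32 members (6.25%), Hmgcs1 and Mlxipl, against 1.22% of all genes. The E-box letters CACGTG were present for 7 of 32 members (21.9%) against 6.86% of all genes. A match is a run of letters and not a shown binding site, and genes with several start sites have more windows to match. Start sites are those of RefSeq. In the GENCODE annotation Srebf2 begins at 82147181 and Msmo1, on the minus strand, at 64733792. Both positions lie inside the printed windows, so part of these windows is within the GENCODE gene. In the sequences, given 5′ to 3′ up to the base before the start site, capitals mark CCAAT or its complement ATTGG and, in Hmgcs1, TCACCCCAC.
Hmgcs1, chr13:119690101-119690350, plus strand: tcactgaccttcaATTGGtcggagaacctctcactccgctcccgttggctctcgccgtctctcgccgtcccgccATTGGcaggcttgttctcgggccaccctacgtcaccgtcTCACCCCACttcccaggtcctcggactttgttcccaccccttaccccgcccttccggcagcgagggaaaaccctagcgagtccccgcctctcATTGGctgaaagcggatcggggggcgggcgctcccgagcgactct
Srebf2, chr15:82147019-82147268, plus strand: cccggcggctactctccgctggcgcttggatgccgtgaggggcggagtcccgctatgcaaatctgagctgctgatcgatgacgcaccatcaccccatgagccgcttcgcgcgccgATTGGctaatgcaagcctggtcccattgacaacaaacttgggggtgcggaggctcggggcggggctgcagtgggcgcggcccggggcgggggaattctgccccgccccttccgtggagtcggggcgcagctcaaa
Msmo1, chr8:64733579-64733828, minus strand: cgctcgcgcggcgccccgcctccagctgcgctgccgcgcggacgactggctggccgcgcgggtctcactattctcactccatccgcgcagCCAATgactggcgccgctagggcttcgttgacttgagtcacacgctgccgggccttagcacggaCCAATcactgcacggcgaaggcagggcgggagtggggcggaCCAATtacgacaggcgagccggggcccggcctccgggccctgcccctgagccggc
Fasn, chr11:120824548-120824797, minus strand: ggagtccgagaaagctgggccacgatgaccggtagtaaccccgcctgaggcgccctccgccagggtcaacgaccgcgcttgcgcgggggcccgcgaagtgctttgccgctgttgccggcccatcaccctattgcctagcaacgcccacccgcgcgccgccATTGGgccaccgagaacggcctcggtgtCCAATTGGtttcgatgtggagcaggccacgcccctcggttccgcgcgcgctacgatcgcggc
Hmgcs1 held 3 CCAAT boxes and the sterol element core, Srebf2 held 1 box, and Msmo1 and Fasn held 3 each, 2 of them overlapping in Fasn.

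The 6 highest members were all of the fatty acid arm. Levels between genes are given as CPM per kilobase of merged exons, as mean ± SD over all 7 libraries. Scd2, a stearoyl-CoA desaturase that puts a double bond into saturated fatty acids, was first at 53.8 ± 12.0. Acly, which splits citrate to supply acetyl-CoA in the cytosol, followed at 36.5 ± 10.3. Elovl1 (very long chain elongase, 25.6 ± 4.68), Srebf1 (24.4 ± 6.38), Fads1 (delta-5 class desaturase of polyunsaturated fatty acids, 24.3 ± 5.52) and Scd1 (24.1 ± 9.70) lay within 1 SD of each other, so their order is not resolved. In the sterol arm Ebp, a sterol isomerase (20.6 ± 4.41), and Srebf2 (19.9 ± 3.11) were highest and within 1 SD of each other. Insig1 (14.6 ± 3.80), Hmgcs1, the synthase that makes HMG-CoA (13.8 ± 4.60), and Fdft1, squalene synthase (11.5 ± 2.83), came next, each within 1 SD of its neighbour. The 10 highest members were the same 10 genes when each library was scaled to its summed counts per kilobase.

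**Figure D1:**
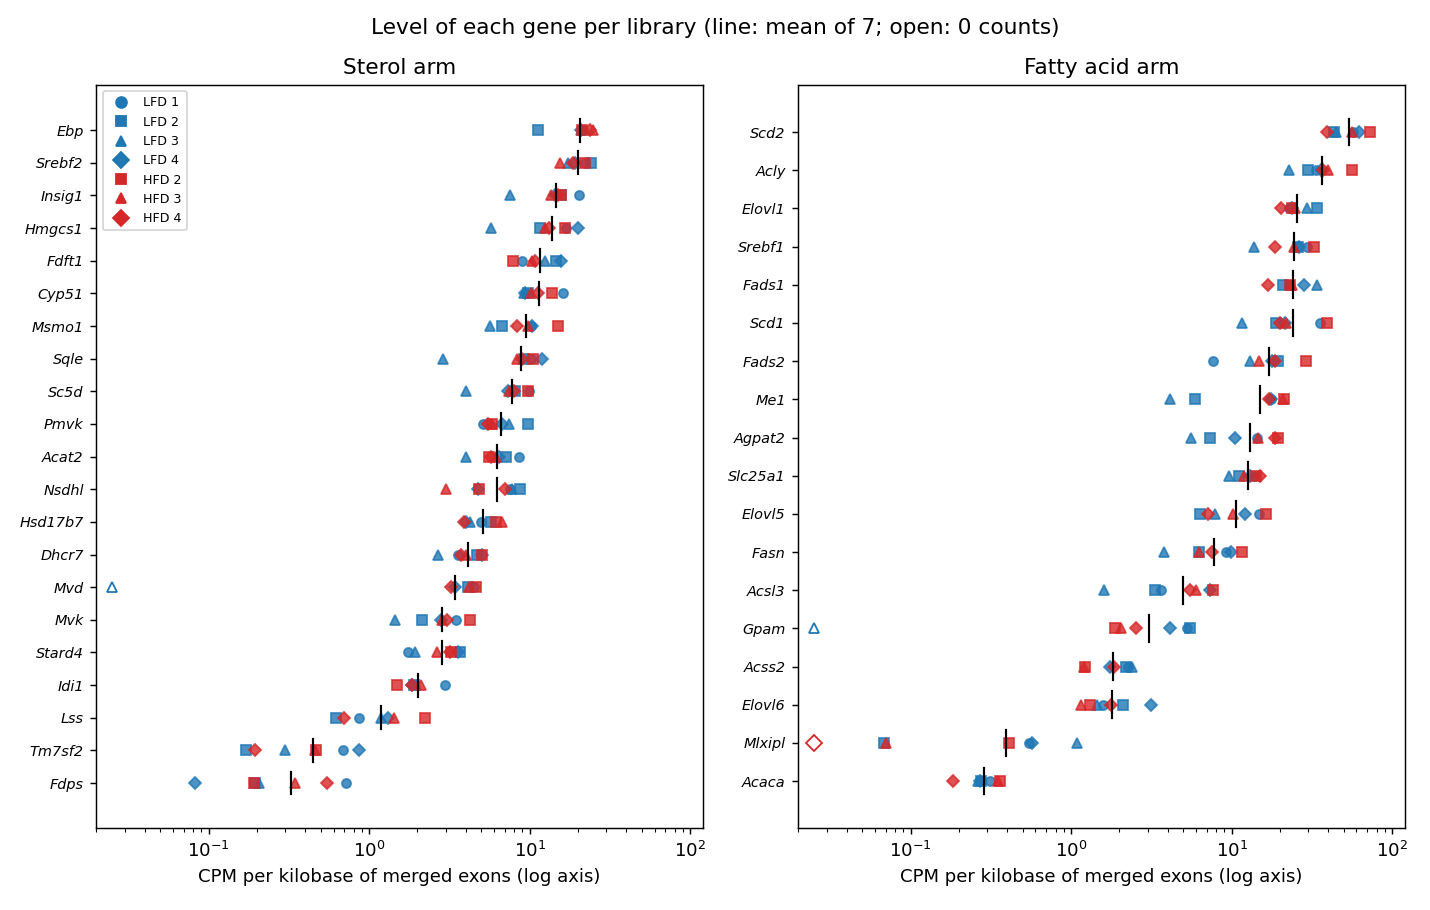
Level of each gene in every library, in CPM per kilobase of merged exons on a log axis, for the sterol arm (left) and the fatty acid arm (right); colour is the diet, marker shape the library number, the black line the mean of 7 libraries and an open marker a library with 0 counts, drawn at the left edge. Scd2 (mean 53.8) and Acly (36.5) lead, and LFD 3 (blue triangles) is often the lowest point of a row.

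Lowly counted members need care. Fdps, which makes farnesyl diphosphate, had 7 to 77 counts per library, and its merged exons (4208 bases) overlap another annotated gene on the same strand over 1124 bases. Tm7sf2, a sterol reductase, had 12 to 78 counts and Mlxipl, which encodes the carbohydrate response factor ChREBP, 0 to 97. Merged exons of 16 members overlap another gene, 5 of them on the same strand, and how such reads were counted is not given in the sources used here. Acat2 has the near-identical neighbour Acat3, so its counts are uncertain as well.

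No member of either arm passed the test between the diets. With edgeR's quasi-likelihood test and Benjamini-Hochberg adjustment over 14304 genes, 0 of 39 members had an adjusted p under 0.05, where 0.035% of all genes did, and the smallest adjusted p of a member was 0.597. An unadjusted p under 0.05 was found for 1 member (2.56%), against 7.53% of all genes. That member was higher in HFD, as were 5.18% of all genes, and 0 members were lower, against 2.35%. DESeq2 also called 0 members, where it called 2.25% of the genes it gave an adjusted p. The sterol arm had 14 members with higher and 7 with lower values in HFD and a median log2 fold change of 0.10, with a range from -0.54 to 0.55. The fatty acid arm had 12 higher and 6 lower and a median of 0.12, ranging from -1.82 to 0.89. Over all genes tested 51.5% were higher and the median was 0.02. The 26 higher and 13 lower members became 16 and 23 without HFD 2 and 20 and 19 without LFD 3. They became 19 and 20 with limma-voom, and 11 and 28 with the erythroid share as a second term. Of all genes, 49.9% were higher without HFD 2 and 50.0% without LFD 3. With limma-voom 56.0% of all genes were higher, and with the erythroid share as a second term 54.5%.

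**Figure D2:**
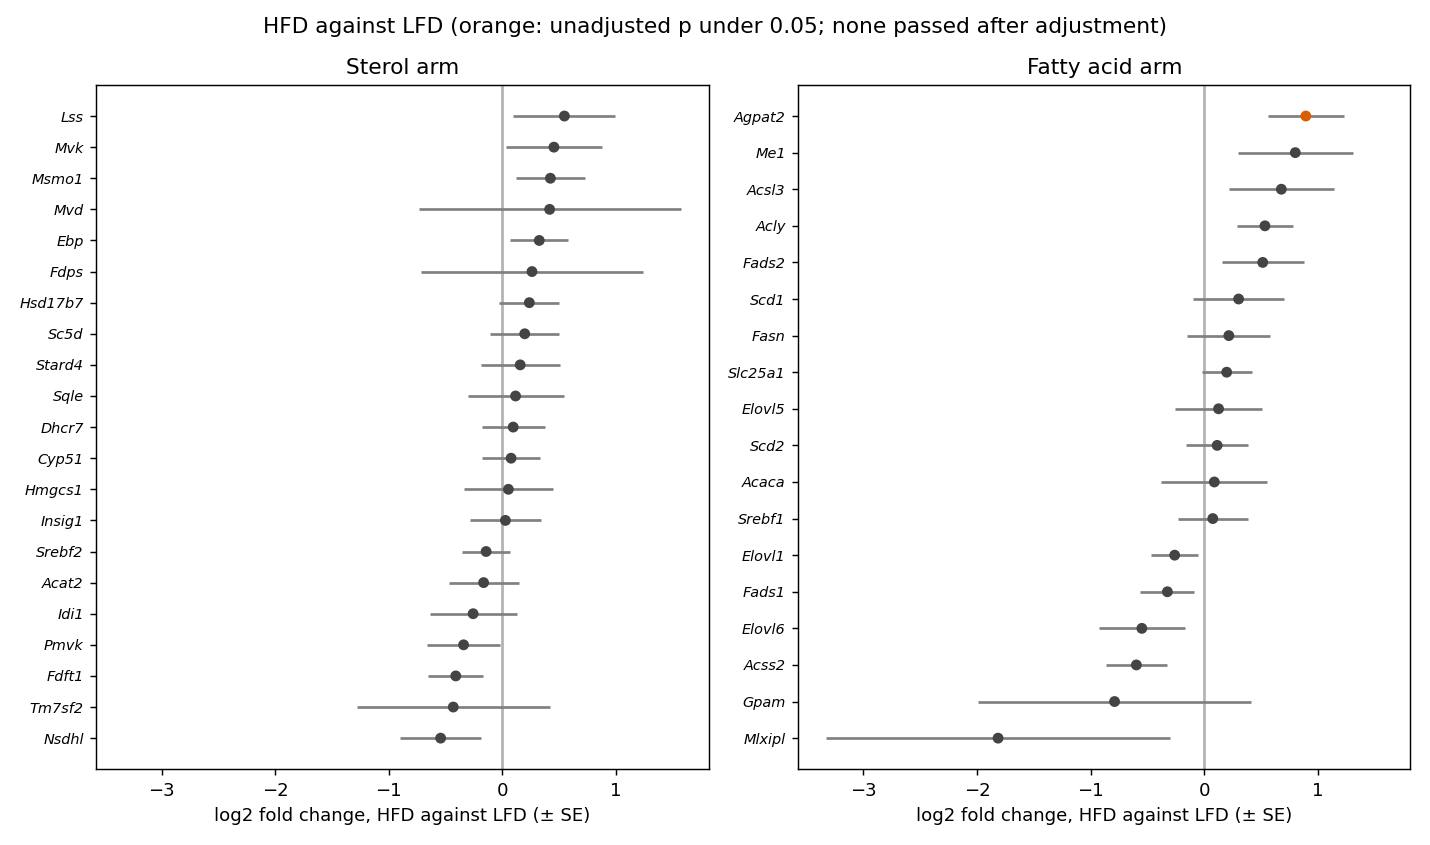
Log2 fold change of HFD against LFD with its standard error for each gene of the sterol arm (left) and the fatty acid arm (right), from edgeR. Points lie on both sides of 0 in each arm, and Agpat2 (0.89, orange) is the sole gene with an unadjusted p under 0.05.

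No regulator passed the test between the diets. Srebf2 measured 159.9, 173, 124 and 138 CPM in LFD 1 to 4 and 159.8, 110.4 and 134 CPM in HFD 2 to 4, a log2 fold change of -0.14 ± 0.21 (SE), which was -0.29 without HFD 2 and -0.0046 without HFD 3. Srebf1 measured 166, 146, 77.3 and 148 CPM in LFD and 183, 137 and 105 CPM in HFD, a log2 fold change of 0.07 ± 0.31. Insig1, the sterol-dependent brake on SREBP and itself a known SREBP target, measured 63.1, 48.4, 23.3 and 44.6 CPM in LFD and 48.3, 42.2 and 46.7 CPM in HFD (0.03 ± 0.31). For all 3 genes the groups overlapped, and LFD 3 was the lowest library for Srebf1 and Insig1. Mlxipl measured 3.04, 0.376, 6.04 and 3.16 CPM in LFD and 2.27, 0.386 and 0 CPM in HFD, the 0 allowing up to 0.143 CPM at 3 counts. The log2 fold change of Mlxipl, -1.82 ± 1.51, is therefore loosely determined, and it was -3.99 without HFD 2. Stard4, a cholesterol carrier of the cytosol, ranged from 9.79 to 20.4 CPM.

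The mevalonate steps did not separate the diets. Hmgcs1 (ENSMUSG00000093930, chromosome 13, 119690379 to 119708260) measured 77.5, 53.4, 26.5 and 91.7 CPM in LFD and 76.2, 57.0 and 60.6 CPM in HFD, a log2 fold change of 0.05 ± 0.39. The HFD libraries lay inside the LFD range, whose ends were LFD 3 and LFD 4. Mvk and Pmvk, the kinases that phosphorylate mevalonate in turn, ranged from 3.86 to 11.4 and from 8.74 to 16.7 CPM. Mvd, the decarboxylase after them, had 0 counts in LFD 3, which allows up to 0.187 CPM, and 6.02 to 8.64 CPM elsewhere. Idi1, the isomerase of isoprenoid units, ranged from 5.25 to 10.3 CPM, and Acat2, the thiolase at the start, from 10.3 to 21.9 CPM.

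From squalene to cholesterol, single enzymes leaned in opposite directions. Fdft1 measured 38.1, 61.6, 52.4 and 65.9 CPM in LFD and 33.3, 43.9 and 45.8 CPM in HFD, with a log2 fold change of -0.41 ± 0.24, and its exons overlap those of Ctsb on the other strand. Lss, the cyclase that closes squalene epoxide into lanosterol, measured 9.36, 6.70, 12.8 and 14.1 CPM in LFD and 24.1, 15.4 and 7.50 CPM in HFD (0.55 ± 0.45). HFD 2 and HFD 3 were above every LFD library for Lss and HFD 4 was inside the LFD range. Cyp51, the lanosterol demethylase, measured 71.4, 43.4, 40.7 and 41.0 CPM in LFD and 61.1, 44.7 and 49.6 CPM in HFD (0.08 ± 0.26). Msmo1 (ENSMUSG00000031604, chromosome 8, 64718139 to 64733792), the sterol methyl oxidase, measured 63.0, 41.5, 34.6 and 63.3 CPM in LFD and 92.7, 59.8 and 50.9 CPM in HFD (0.42 ± 0.30). HFD 2 was above every LFD library for Msmo1 and the other HFD libraries were not. Without HFD 2 the log2 fold change of Msmo1 was 0.13 and that of Lss 0.09, and without HFD 4 that of Lss was 0.88. The enzymes Sqle (16.1 to 66.3 CPM), Sc5d (19.5 to 48.1), Dhcr7 (15.7 to 29.4) and Hsd17b7 (19.8 to 34.3) had overlapping groups too, and LFD 3 held the lowest value of the first 3.

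Nsdhl and Ebp, both of the sterol arm, are the X-linked members, and the part of sex in their values was not tested. Nsdhl, a sterol dehydrogenase, measured 21.5, 24.7, 22.3 and 13.6 CPM in LFD and 13.7, 8.55 and 19.97 CPM in HFD, with a log2 fold change of -0.54 ± 0.36. Ebp measured 49.3, 26.0, 48.3 and 48.1 CPM in LFD and 49.1, 57.6 and 54.7 CPM in HFD (0.32 ± 0.25). The groups overlapped for both genes. The log2 fold change of Nsdhl was -0.28 without HFD 3 and -0.88 without HFD 4, and that of Ebp was 0.14 without LFD 2.

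In the fatty acid arm, 2 members had groups that did not overlap, which is 5.13% of all 39 members against 11.9% of all genes tested. Both were higher in HFD, where 8.4% of all genes were higher and 3.47% lower without overlap. Agpat2, an acyltransferase on the way to triglycerides and phospholipids (ENSMUSG00000026922, chromosome 2, 26593057 to 26604417), measured 30.5, 15.6, 12.0 and 22.4 CPM in LFD and 41.4, 31.2 and 39.8 CPM in HFD. Its mean was 20.1 ± 8.18 (SD, n = 4) in LFD and 37.4 ± 5.50 (SD, n = 3) in HFD, a log2 fold change of 0.89 ± 0.33 with an edgeR adjusted p of 0.597. LFD 1 lay just below HFD 3. The exons of Agpat2 overlap those of Egfl7 on the other strand by 64 bases. Acly (ENSMUSG00000020917, chromosome 11, 100476353 to 100528000) measured 178, 159, 120.5 and 189 CPM in LFD and 296, 209.9 and 195 CPM in HFD, a log2 fold change of 0.53 ± 0.24 (edgeR adjusted p = 0.681). HFD 4 stood barely above LFD 4, and HFD 2 well above both. The log2 fold change of Acly was 0.32 without HFD 2, 0.34 with limma-voom and 0.16 with the erythroid share as a second term.

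The other suppliers of acetyl-CoA and NADPH differed among themselves. Acss2, which makes acetyl-CoA from acetate, measured 22.9, 22.4, 24.3 and 17.6 CPM in LFD and 12.4, 12.2 and 18.7 CPM in HFD, with a log2 fold change of -0.60 ± 0.27 (edgeR adjusted p = 0.679). Only HFD 4 reached into the LFD range. Me1, the cytosolic malic enzyme and a source of NADPH, measured 68.0, 22.9, 15.9 and 67.7 CPM in LFD and 81.7, 80.9 and 65.9 CPM in HFD (0.80 ± 0.50). LFD 2 and LFD 3 were low for Me1, while LFD 1 and LFD 4 were near the HFD libraries, and without LFD 3 its log2 fold change was 0.53. The citrate carrier Slc25a1 ranged from 20.98 to 32.4 CPM.

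Chain synthesis, elongation and desaturation genes overlapped between the diets throughout. Fasn, fatty acid synthase, ranged from 41.3 CPM in LFD 3 to 126 CPM in HFD 2, and Acaca, the acetyl-CoA carboxylase before it, from 3.15 to 6.19 CPM. Scd1 (chromosome 19, 44394455 to 44407879) measured 174, 92.2, 57.1 and 106 CPM in LFD and 191, 107 and 97.8 CPM in HFD, with a log2 fold change of 0.30 ± 0.40. Scd2 (chromosome 19, 44293674 to 44306864) measured 312, 239, 245 and 342 CPM in LFD and 401, 307 and 214 CPM in HFD (0.11 ± 0.27). Per kilobase Scd2 exceeded Scd1 in each of the 7 libraries, by 1.61-fold in LFD 1 to 3.84-fold in LFD 3. HFD 2 had the highest level of both desaturases.

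The elongases spread in other ways. Elovl5, which extends polyunsaturated chains, measured 52.4, 22.5, 27.8 and 42.8 CPM in LFD and 57.9, 35.8 and 25.2 CPM in HFD, with a log2 fold change of 0.13 ± 0.38. Elovl1 measured 62.5, 93.3, 80.2 and 64.6 CPM in LFD and 64.9, 67.7 and 55.5 CPM in HFD (-0.26 ± 0.21), and its exons overlap by 53 bases those of the cell cycle gene Cdc20. Fads1 measured 109.8, 101, 164 and 136 CPM in LFD and 111, 114 and 81.0 CPM in HFD (-0.32 ± 0.24). LFD 3 was highest for Fads1. Fads2, the partner desaturase, ranged from 25.3 CPM in LFD 1 to 95.6 CPM in HFD 2, and Elovl6, which extends palmitate, from 7.39 to 20.2 CPM. Acsl3, which activates fatty acids with coenzyme A, measured 15.8, 14.5, 6.97 and 31.9 CPM in LFD and 33.2, 26.0 and 23.8 CPM in HFD (0.68 ± 0.46). With 1 library left out, the log2 fold change of Acsl3 was 0.43 without LFD 3 and 1.16 without LFD 4, that of Fads1 -0.17 without LFD 3 and -0.18 without HFD 4, and that of Elovl1 -0.14 without LFD 2. Gpam, the acyltransferase that starts glycerolipid synthesis, had 0 counts in LFD 3, which allows up to 0.187 CPM. It ranged from 27.5 to 36.6 CPM in LFD 1, 2 and 4 and from 12.5 to 16.9 CPM in HFD. Apart from LFD 3, every LFD library was thus above every HFD library for Gpam, and the groups overlapped through LFD 3 alone.

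The libraries differed widely in their content of red cell transcripts. An erythroid list of 29 measured genes, among them the globins and heme enzymes, took 12.0%, 16.5%, 18.3% and 14.1% of all counts in LFD 1 to 4 and 3.32%, 9.57% and 13.1% in HFD 2 to 4. HFD 2 was far below the other libraries and HFD 4 lay within the LFD range. The mean was 15.2% ± 2.74 (SD, n = 4) in LFD and 8.67% ± 4.97 (SD, n = 3) in HFD, with a two-sided exact permutation p of 0.0571 over 35 assignments, whose smallest p is 0.0286. The sorting gene Cd24a was lowest in HFD 2 (774 CPM) and highest in LFD 2 (4218 CPM) and LFD 3 (4852 CPM). Its order over the libraries followed the erythroid share, except that HFD 3 (2452 CPM) stood above LFD 1 (1524 CPM). In these sorted pools, fewer cells of a type and less RNA per cell cannot be told apart.

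Members of both arms tended to be lower where the erythroid share was higher. Each gene's level was fitted on diet and on the log2 erythroid share together, so that a slope is the log2 change in level for each doubling of the share among libraries of the same diet. The slope was negative for 15 of 21 sterol members (median -0.20) and 15 of 18 fatty acid members (median -0.36), against 51.7% of all genes (median -0.02). With edgeR, 0 members had an adjusted p under 0.05 for the slope, where 0% of all genes did. At an unadjusted p under 0.05 there were 5 members with a negative slope (12.8%) and 0 with a positive one, against 1.31% and 9.91% of all genes. The diet comparison and the slopes come from the same 7 libraries. Without HFD 2, 29 of 39 members had a negative slope and 6 reached an unadjusted p under 0.05, and the share of all genes doing so in that direction was then 6.33%. Without HFD 4, 31 were negative and 0 reached it, against 0.62% of all genes in that direction. Of all genes, 44.4% had a positive slope without HFD 2 and 48.3% without HFD 4.

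**Figure D3:**
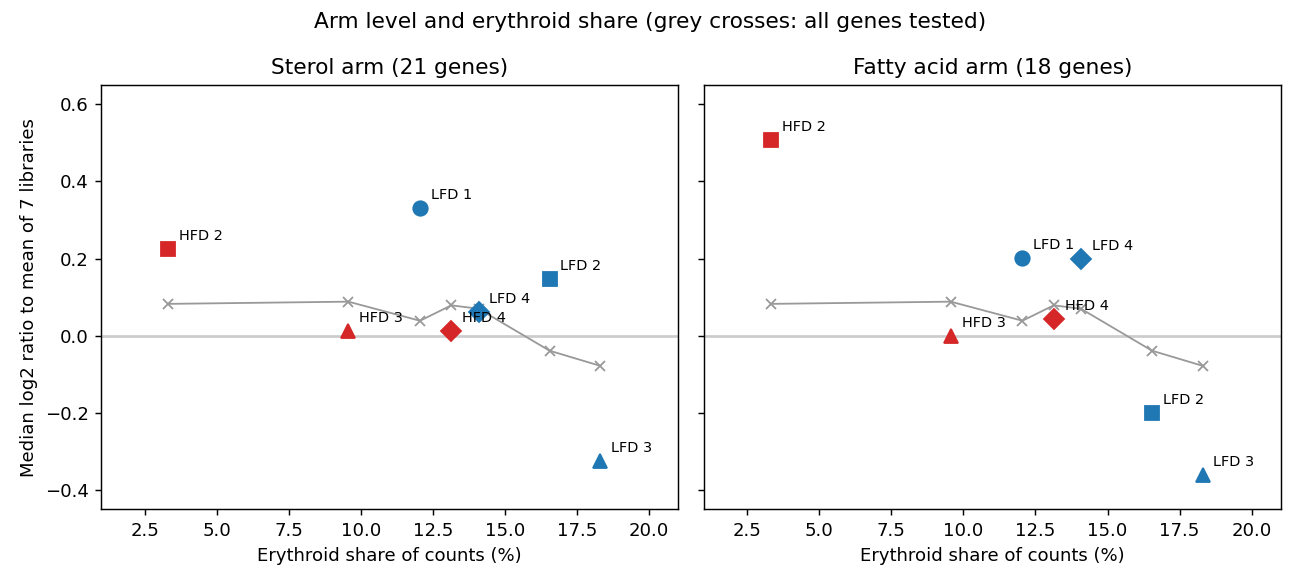
Median over the genes of each arm of the log2 ratio of a library's CPM to the gene's mean over 7 libraries, against the erythroid share of counts in percent, 1 point per library; grey crosses give the same median over all genes tested. The fatty acid arm (right) runs from 0.51 in HFD 2 to -0.36 in LFD 3, the libraries with the lowest and highest erythroid share.

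The 5 members with an unadjusted p under 0.05 were Elovl5, Scd1, Scd2, Acly and Msmo1. Elovl5 had a slope of -0.69 ± 0.22 (edgeR adjusted p = 0.275), Scd1 -0.67 ± 0.24 (adjusted p = 0.325), Scd2 -0.43 ± 0.15 (adjusted p = 0.292) and Acly -0.36 ± 0.14 (adjusted p = 0.398). In the sterol arm Msmo1 had -0.53 ± 0.18 (adjusted p = 0.295), Lss -0.64 ± 0.33, Cyp51 -0.28 ± 0.20 and Fdft1 a positive 0.27 ± 0.19. All 5 slopes were steeper without HFD 2, at -1.61 for Elovl5, -1.71 for Scd1, -0.91 for Scd2, -0.67 for Acly and -1.21 for Msmo1. Without HFD 2 Cyp51 had -0.74 and Fdft1 0.46, and without HFD 4 Lss had -0.34. The slopes of the other elongases and desaturases were 0.01 for Elovl1, 0.11 for Elovl6, -0.09 for Fads1 and -0.28 for Fads2, all at an unadjusted p above 0.05. Scd2 was the sole member DESeq2 called for this slope (-0.45, adjusted p = 0.0431), where it called 6.34% of genes. Among regulators the slopes were -0.46 ± 0.21 for Srebf1, -0.20 ± 0.27 for Insig1, -0.19 ± 0.15 for Srebf2 and -2.08 ± 1.21 for the sparsely counted Mlxipl. Without HFD 2 these were -1.24, -1.11, 0.0053 and -1.19. The lowest level of Scd2 was in HFD 4 (214 CPM), although 3 libraries had a larger erythroid share.

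**Figure D4:**
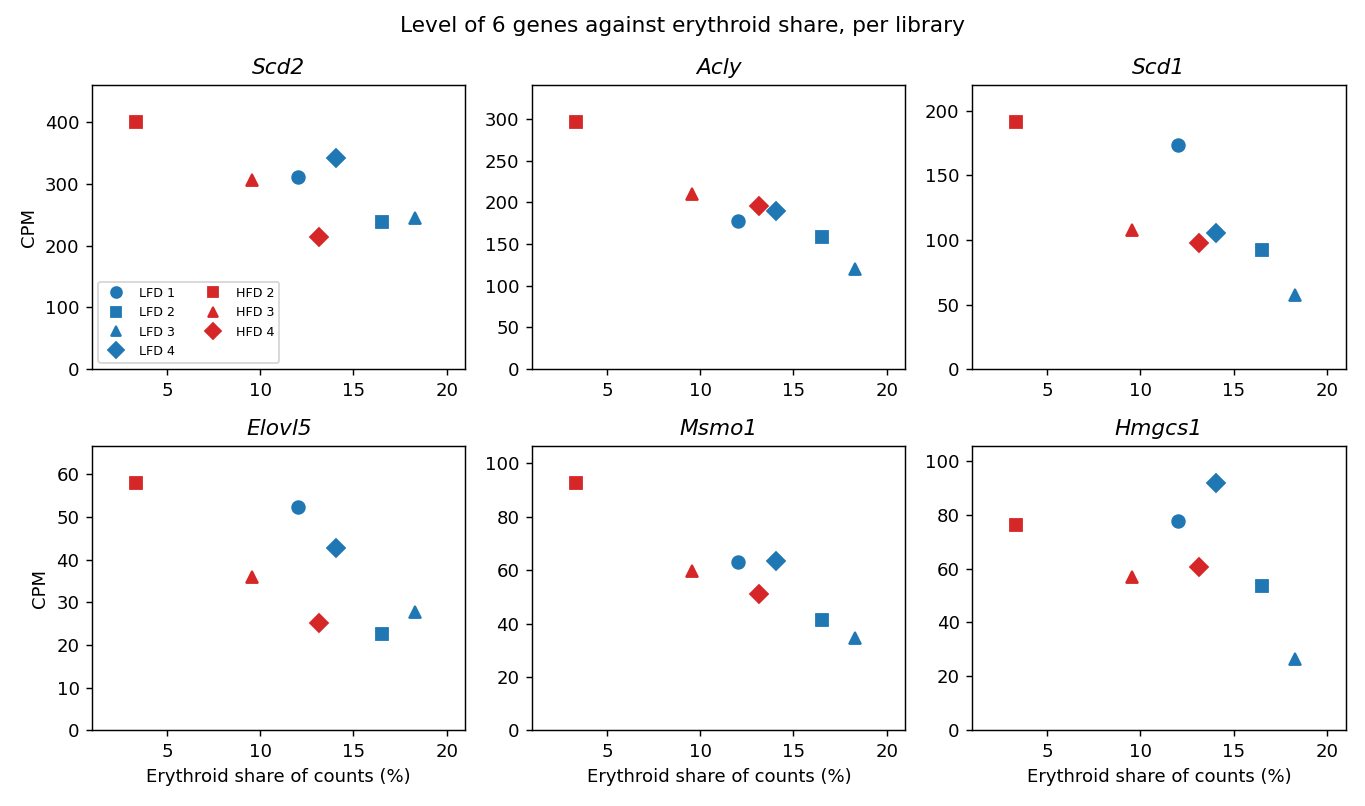
CPM of Scd2, Acly, Scd1, Elovl5, Msmo1 and Hmgcs1 in each library against the erythroid share of counts in percent, with colour for the diet and marker shape for the library number. HFD 2, at 3.32% erythroid counts, is highest for the first 5 genes, and LFD 3, at 18.3%, is lowest for Acly, Scd1, Msmo1 and Hmgcs1.

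Read library by library, the same values did not fall steadily as the erythroid share rose. The median log2 ratio of the sterol arm was 0.15 in LFD 2, at 16.5% erythroid counts. It was 0.01 in HFD 3 (9.57%) and 0.01 in HFD 4 (13.1%). LFD 3 held the lowest value of 10 of 21 sterol members (47.6%) and 9 of 18 fatty acid members (50.0%), against 24.1% of all genes tested. The lowest value of the other 20 members was in HFD 4 for 6 (15.4% of members against 8.03% of all genes), in HFD 3 for 4 (10.3% against 3.91%), in LFD 2 for 4 (10.3% against 21.7%), in LFD 1 for 3 (7.69% against 15.3%), in HFD 2 for 2 (5.13% against 21.1%) and in LFD 4 for 1 (2.56% against 5.89%). HFD 2 held the highest value of 5 of 21 sterol members (23.8%) and 11 of 18 fatty acid members (61.1%), against 17.5% of all genes. In the sterol arm LFD 1 held the highest value of more members, 6 of 21 (28.6%, against 19.8% of all genes), and the highest median log2 ratio, 0.33 against 0.23 in HFD 2. The summed level of the sterol arm was 778, 702, 505 and 744 CPM in LFD 1 to 4 and 796, 646 and 666 CPM in HFD 2 to 4. The fatty acid arm summed to 1400.2, 1141, 957 and 1418 CPM in LFD and 1755, 1299 and 1130.2 CPM in HFD. LFD 3 was thus lowest for both arms and HFD 2 highest for both, while LFD 1, at 12.0% erythroid counts, came close to HFD 2 for the sterol arm. LFD 3 also had the fewest genes detected, 15394 against 15788 to 18850 elsewhere. In LFD 3, 33 genes with at least 100 counts in every other library had 0 counts, Gpam and Mvd among them, against 0 to 14 genes in the others, and the part of such losses in its low values was not tested.

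Other genes of these pathways gave 30 higher and 19 lower of 49 tested (61.2% higher, against 51.5% of all genes), a median log2 fold change of 0.14 and 0 passing edgeR's adjusted threshold. At an unadjusted p under 0.05 there were 5 higher and 1 lower, where 5.18% and 2.35% of all genes were. Groups did not overlap for 7 higher and 2 lower genes (18.4% of 49, against 11.9% of all genes, 8.4% higher and 3.47% lower). All 3 NADPH genes had higher means on the log2 scale of the fit. G6pdx, the X-linked first enzyme of the pentose phosphate pathway, measured 56.4, 59.0, 70.5 and 70.5 CPM in LFD and 86.9, 108 and 114 CPM in HFD, with a log2 fold change of 0.68 ± 0.19 (edgeR adjusted p = 0.352, DESeq2 adjusted p = 0.0282). Pgd, a later enzyme of that pathway, measured 59.1, 23.6, 37.4 and 61.3 CPM in LFD and 84.5, 92.8 and 86.4 CPM in HFD (0.95 ± 0.32, edgeR adjusted p = 0.529). The diets did not overlap for either gene, both among the 7 above. Idh1, the other NADPH gene, measured 25.6 to 62.8 CPM in LFD and 45.7 to 55.6 CPM in HFD, which overlapped (0.18 ± 0.33). Together with Me1 these genes supply cytosolic NADPH, which fatty acid and sterol synthesis consume.

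Of 21 other fatty acid and triglyceride genes, 13 were higher and 8 lower (61.9% higher, against 51.5% of all genes). At an unadjusted p under 0.05 by edgeR there were 3 higher and 1 lower (19.0% together, against 7.53% of all genes). Groups did not overlap for 4 higher and 2 lower (28.6% together, against 11.9% of all genes). Dgat2, which adds the last acyl chain of a triglyceride, measured 11.5, 6.89, 9.59 and 12.9 CPM in LFD and 16.1, 29.6 and 31.3 CPM in HFD, with a log2 fold change of 1.33 ± 0.34 (edgeR adjusted p = 0.318, DESeq2 adjusted p = 0.0186). Lpin2, a phosphatidate phosphatase, measured 46.8, 182, 250.2 and 114 CPM in LFD and 23.2, 70.8 and 72.1 CPM in HFD (-1.42 ± 0.61, edgeR adjusted p = 0.658). Elovl4 was sparse in LFD, at 0 to 2.13 CPM, and measured 4.97 to 12.2 CPM in HFD. Dgat1, named here after its values were seen, catalyses the same step as Dgat2 and measured 11.4 to 28.2 CPM in LFD and 29.95 to 36.8 CPM in HFD (0.79 ± 0.31, edgeR adjusted p = 0.617). Dgat1, Dgat2, Elovl4 and Agpat1, among the 7 above, did not overlap between the diets, and Lpin2 did. Tecr and Acsl5, also named after their values were seen, were the 2 lower in HFD without overlap. Tecr measured 211 to 227 CPM in LFD and 188 to 192 CPM in HFD, and Acsl5 71.0 to 80.8 and 52.2 to 68.8 CPM.

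Of the 49 other pathway genes tested, 27 had a negative and 22 a positive slope on the erythroid share. That is 55.1% negative, against 51.7% of all genes, and 0 passed edgeR's adjusted threshold. At an unadjusted p under 0.05, 7 of 49 had a positive slope, where 9.91% of all genes had one. A negative slope at that threshold was found for 1 (2.04%), against 1.31% of all genes. Acsl1, another fatty acid activating enzyme, had a slope of 1.12 ± 0.28 (adjusted p = 0.162) and levels from 79.3 CPM in HFD 2 to 588 CPM in LFD 3. Lpin2 (1.13 ± 0.37), Lpcat3, a phospholipid acyltransferase and LXR target (0.73 ± 0.22), the ubiquitin ligase gene Rnf139 (0.66 ± 0.20), Mid1ip1, a partner of acetyl-CoA carboxylase (0.48 ± 0.18) and Mylip, a ligase for lipoprotein receptors (0.42 ± 0.15), were positive too. Without HFD 2 the slopes were 2.23 for Acsl1, 2.58 for Lpin2, 1.82 for Lpcat3, 1.33 for Rnf139, 0.74 for Mylip and 0.18 for Mid1ip1. DESeq2 called Acsl1 (adjusted p = 0.00443) and Lpin2 (adjusted p = 0.0402), where it called 6.34% of all genes for the slope.

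Several marker lists of other cells differed in the same comparisons, and their part in the values above was not tested. Granulocyte markers summed to 960 to 5705 CPM in LFD and 9212 to 17580 CPM in HFD, with 14 of 14 higher in HFD. Monocyte and macrophage markers summed to 120 to 778 and 1588 to 2045 CPM, with 9 of 10 higher. The 7 reticular stroma markers summed to 195 to 418 and 1526 to 2662 CPM. Of the markers tested, 7 of 8 chondrocyte, 7 of 8 osteoblast and 8 of 8 B lineage genes were higher in HFD. Lower in HFD were 5 of 6 megakaryocyte, 4 of 5 endothelial, 3 of 4 Schwann and 3 of 5 muscle genes. Among all genes tested 51.5% were higher. The 12 proliferation genes were lowest in HFD 2 (1189 CPM) and highest in LFD 2 (6400.4 CPM) and LFD 3 (6234 CPM), the libraries with the lowest and the 2 highest erythroid shares. Of 8 adipocyte markers Cidec, Lep, Retn and Cfd had 0 counts in all libraries, and Plin1 had 0 in all but HFD 4. The list summed to 41.8 to 74.7 CPM in LFD and 50.4 to 80.4 CPM in HFD, of which Pnpla2 gave 28.2 to 55.0 CPM. Of the 3 tested, 1 was higher in HFD and 2 were lower. Adipoq measured 0.0390, 19.5, 3.30 and 2.62 CPM in LFD and 21.4, 26.0 and 23.5 CPM in HFD. Fabp4 measured 1.83 to 9.79 CPM in LFD and 0.874 to 1.64 CPM in HFD.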

How the data were processed

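RNA from sorted femoral cells was sequenced by the authors from low-input cDNA (SMART-Seq v4, Nextera XT), per the labels' protocols. The deposited values are raw counts per Ensembl gene. Per the submitters' processing notes, HTSeq 0.11.2 and STAR 2.5.2b were among the tools, with DESeq2 1.26.0, cutadapt and bcl2fastq 2.20, on build mm10. The sources used here give neither the strand setting nor the annotation release. Groups follow the diet named in each title. Nothing says that libraries came from separate animals, so a p-value reflects only how far these samples scatter, possibly for technical reasons. The pair most alike differed by a chi-square of 53.8 per degree of freedom, so none was counted as a repeat. Symbols came from a name table (42250 of 42687 identifiers matched), and coordinates and merged exon lengths from GENCODE M21 on the same build.

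The diets were compared with edgeR 4.0.16 in R 4.3.3 (quasi-likelihood test, robust, TMM, filterByExpr, all 7 libraries, diet as the sole term, 14304 genes, common biological coefficient of variation 0.628), with Benjamini-Hochberg adjustment at 0.05, and the slopes with diet and log2 erythroid share as terms. Standard errors are the fold change over the root of F. Ratios to a gene's mean used log2(CPM + 0.5). The procedure was also run on simulated data with planted changes larger than most differences of the members. Its outcome is not given here, and it does not bear on changes as small as theirs. Other settings tried were upper-quartile and RLE normalization, totals without erythroid genes, other filters, no robust estimates, DESeq2 1.42.0, limma-voom (limma 3.58.1), the erythroid share or the replicate number in the model, an adjusted p under 0.1 and each library left out.

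The members, gene lists and tests were chosen with earlier results of these data known. Values are printed for the regulators, the members of each arm with the highest level per kilobase (5), the smallest p between diets (5) or the smallest p of the slope (4), and for up to 10 other pathway genes with an unadjusted p under 0.05. Idh1, Dgat1, Tecr and Acsl5 are printed besides these. Remaining members are given by range. PCR without molecular identifiers means that floors at 3 counts cover counting error only. Further sterol pathway enzymes and receptors were not analysed here.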

Additional observations from a re-analysis of the deposited data

Results flagged for a closer look

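Among the 4 LFD libraries, 3 of 39 members had 1 library far from the others, where chance flags about 1 group in 20. The share of all genes flagged in this way was not determined, so the 3 are described only. Cyp51 reached 71.4 CPM in LFD 1 against 40.7 to 43.4 CPM in the other 3. Idi1 reached 10.3 CPM in LFD 1 against 6.52 to 6.91 CPM. Ebp, on the X chromosome, measured 26.0 CPM in LFD 2 against 48.1 to 49.3 CPM.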

How the results depend on the processing

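No member was called between the diets under any of 17 alternatives (smallest adjusted p 0.219), and 19 of 39 kept their sign in all of them. The 5 genes called among all genes became 8 without a filter, 0 with at least 10 counts in 4 libraries, 10 at an adjusted p under 0.1, 26 with limma-voom, 361 with DESeq2, 1 with the erythroid share in the model, and 1 to 6 with a library left out. Correlations of deviations between the diets ran from -0.0950 to 0.0263 for equal replicate numbers and from -0.172 to 0.189 for unequal ones. They showed no pairing by number, but so few libraries cannot exclude one. With the replicate block 0 genes were called and the arm medians were 0.30 and 0.27. Adding the erythroid share as a term gave medians of -0.16 (sterol) and -0.33 (fatty acid). Among the members printed library by library, the fold changes then changed sign for Insig1 (-0.16), Hmgcs1 (-0.30), Lss (-0.24), Cyp51 (-0.20), Msmo1 (-0.13), Srebf1 (-0.40), Elovl5 (-0.61), Scd1 (-0.39) and Scd2 (-0.36). They did so with limma-voom for Hmgcs1 (-0.21), Srebf1 (-0.013), Elovl5 (-0.052) and Scd2 (-0.021). With a library left out, Cyp51 ran from -0.066 to 0.32, Srebf1 from -0.16 to 0.25, Elovl5 from -0.26 to 0.37, Scd1 from -0.070 to 0.65 and Scd2 from -0.13 to 0.32, and the medians ran from -0.04 to 0.22 (sterol) and from -0.11 to 0.31 (fatty acid). Among the same printed members, the sign changed without HFD 2 for Insig1 (-0.02), Hmgcs1 (-0.09), Cyp51 (-0.066), Srebf1 (-0.16), Elovl5 (-0.26), Scd1 (-0.070) and Scd2 (-0.13), and without LFD 3 for Insig1 (-0.18), Hmgcs1 (-0.19) and Srebf1 (-0.11). Without LFD 2 it changed for Hmgcs1 (-0.02) and Elovl5 (-0.05), and without LFD 4 for Cyp51 (-0.00016). Members given by range changed sign too, such as Dhcr7 in 4 of 17 alternatives and Fasn, Sqle and Acaca in 3 each. For the slope, 0 genes called became 262 at an adjusted p under 0.1, 728 with the erythroid share as the sole term, 875 with DESeq2 (1 member, Scd2) and 482 without LFD 1, with 0 to 482 over the libraries left out. Slope medians ran from -0.75 to -0.20 (sterol) and from -1.04 to -0.30 (fatty acid), the low ends without HFD 2. The slope of Srebf2 ran from -0.34 to 0.0053, the high end without HFD 2. The slope of Mlxipl was 0.24 with the share as sole term. The globin share alone differed by -1.03 on the log2 scale (exact permutation p = 0.0286), and the erythroid share by -1.42 to -0.43 with a library left out. The cause of these changes was not tested. With 4 and 3 libraries and a common coefficient of variation of 0.628, small differences in single members were not detectable, and members under 100 counts are the least certain.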
